A study of Mus musculus with 3 samples.

Results

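FGF ligands and receptors were described in the gut of wild type mouse embryos of the Bl6/C57 strain at E13.5. The genes were chosen by name from the table of gene expression, as the rows named Fgf1, Fgf2, Fgf7, Fgf9, Fgf10, Fgf18, Fgfr1, Fgfr2, Fgfr3 or Fgfr4. These 10 names matched 11 of the 33762 features in the table, because Fgfr1 is listed at 2 identifiers. Polyadenylated RNA was sequenced from the caecum, the colon and the ileum, with 1 sample per segment, where the ileum is the presumptive ileum, the last portion of a small intestine cut into equal parts. The number of embryos behind a sample is not given in the sources used here. All 3 groups are whole tissue with no treatment of the embryos named in the labels, so fewer cells of a type and less RNA per cell cannot be told apart.

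Fibroblast growth factors are secreted proteins that bind receptor tyrosine kinases on neighbouring cells, with heparan sulphate as a cofactor, and signal through the Ras-MAPK relay. In the mouse gut Fgf10 is made by the mesenchyme and acts on the epithelium through the IIIb splice form of Fgfr2, while Fgf9 is made by the epithelium and acts on mesenchymal receptors. Mice that lack Fgf9, Fgf10 or the IIIb form of Fgfr2 have defects of the caecal bud, and loss of Fgf10 or of that receptor form also leads to atresia of the colon. The table counts whole genes, so the IIIb and IIIc forms of the receptors were not separated here.

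The libraries held 64439972, 50773032 and 50079916 counts in the caecum, colon and ileum, and 23080, 23000 and 22484 features had a count. Each segment has a pair of columns headed as replicates, which differed by 0.485 to 0.486 times the counting variance and were averaged as 1 library. No difference below therefore has a replicate check, no p-value is given, and brackets give 95% intervals that cover counting error only. Folds are ratios of counts scaled between libraries, and levels are the authors' RPKM, reads scaled to gene length and library depth. Endothelial markers summed to 62.8, 76.8 and 62.8 RPKM and blood and immune markers to 49.8, 47.3 and 47.5 RPKM in the caecum, colon and ileum. Hba-x alone held 28.9, 27.2 and 28.3 RPKM of the latter sum. Of the 8 blood and immune markers, 1 was 2-fold or more higher in the caecum than in either other segment and 0 were lower. That gene, Mpo, had 118, 0 and 8 counts, so the even sum does not hold for each marker. Hoxd13, a gene of the hindgut, followed the labels, with 13, 2354 and 1 counts in the caecum, colon and ileum.

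Pooled over the 3 comparisons, 4 of 6 ligands and 0 of 4 receptors were apart by 2-fold or more between segments. The share of all features apart in any comparison was not computed. Since most features were not apart in each comparison below, 0 of 4 receptors does not set the receptors off from other genes. Fgf10 had the largest folds over the ileum of the 10 genes, with abundant transcripts in the caecum and colon libraries and few in the ileum library. Genes are called apart here if the fold reached 2 in either direction and the higher of both libraries had 20 counts or more. For caecum over ileum, 9 of the 10 genes had enough counts, 2 were higher in the caecum (Fgf1 and Fgf10) and 0 were lower, while 4.59% of all features were higher and 2.52% lower by the same rule. For caecum over colon, 0 of 10 were higher in the caecum and 3 were lower (Fgf7, Fgf10 and Fgf18), beside 5.11% of all features higher and 2.74% lower. For colon over ileum, 3 of 10 were higher in the colon (Fgf1, Fgf7 and Fgf10) and 0 lower, beside 4.04% and 4.29% of all features. The median log2 fold over all 10 genes was 0.08 for caecum over ileum, -0.42 for caecum over colon and 0.53 for colon over ileum, or 0.18 for caecum over ileum over the 9 with enough counts, and over all features tested it was 0.0089, 0.0087 and -0.0042 in that order. None of the 4 receptors was apart in any of the 3 comparisons, and neither were most of the features tested in each.

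**Figure D1:**
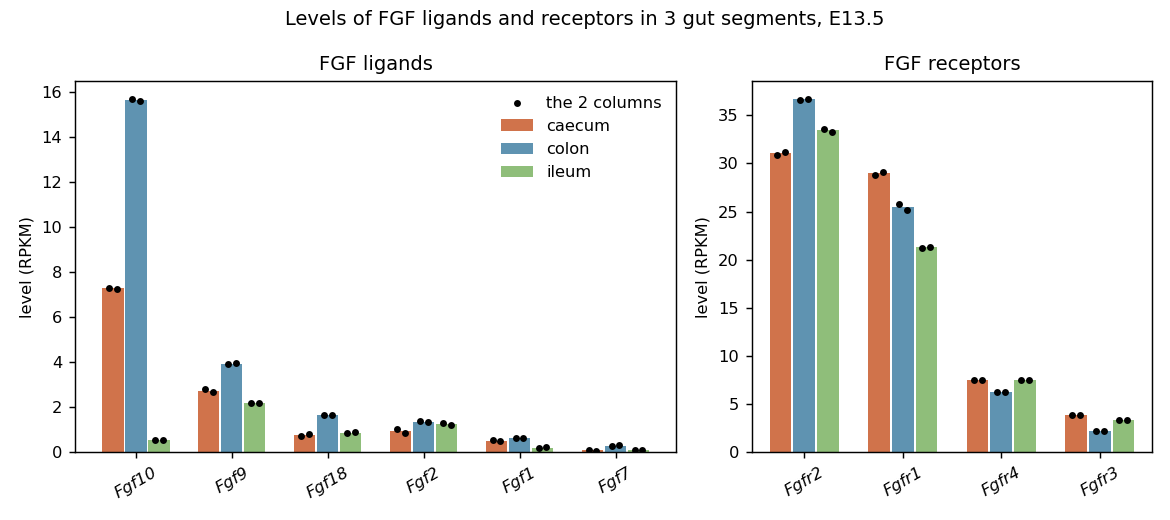
Level of each FGF ligand (left) and receptor (right) in RPKM on linear axes from 0, for the caecum, colon and ileum libraries. Bars are means of the 2 columns of a segment, which were read as 1 library, and dots are the columns. Fgf10 stands at 7.29 and 15.7 RPKM in the caecum and colon and at 0.536 RPKM in the ileum, while Fgfr1 and Fgfr2 lie between 21.3 and 36.7 RPKM in every segment.

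Fgf10 (ENSMUSG00000021732, chromosome 13, 119458598 to 119580922 in mm9, plus strand) had 2162 counts in the caecum, 3663 in the colon and 124 in the ileum. Its levels were 7.29, 15.7 and 0.536 RPKM. The colon library was highest, the caecum library intermediate and the ileum library far below both, and the counting intervals of the 3 levels did not overlap. The fold was 13.4 (11.2 to 16.2) for caecum over ileum, 0.467 (0.443 to 0.493) for caecum over colon and 28.7 (24.0 to 34.6) for colon over ileum. The intervals for caecum over ileum and colon over ileum lie wholly above 2-fold, and that for caecum over colon lies wholly below 0.5. No other feature in the table overlaps the gene. Mesenchyme genes, the marker list of the cells that make Fgf10, summed to 902, 885 and 926 RPKM in the caecum, colon and ileum, with 2 of 11 measured members higher and 0 lower for caecum over ileum. The 2 were Twist1 and Meox2. Dpt, with 0, 2 and 6 counts in the caecum, colon and ileum, had too few counts to be called. For colon over ileum 2 were higher and 1 lower, and for caecum over colon 1 was higher and 0 lower. Lum, a matrix proteoglycan, ran against Twist1 and Meox2, with 6122, 760 and 8862 counts in the caecum, colon and ileum and a fold of 0.0834 (0.0773 to 0.0898) for colon over ileum. Smooth muscle genes summed to 501, 666 and 1237 RPKM, with 6 of 10 lower for caecum over ileum and 5 of 10 lower for colon over ileum, among them Mylk, Actg2, Myh11 and Cnn1 in both. The ileum library, where Fgf10 was lowest, thus held the most smooth muscle transcripts. The part of either in the Fgf10 values was not tested.

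Fgf7 (ENSMUSG00000027208, chromosome 2, 125860394 to 125916921, plus strand), a mesenchymal ligand that shares the IIIb form of Fgfr2 with Fgf10, was sparse. It had 16, 46 and 17 counts in the caecum, colon and ileum, or 0.0764, 0.282 and 0.104 RPKM. The colon library was the highest, and the counting intervals of the caecum and ileum levels overlapped. The fold was 0.275 (0.145 to 0.495) for caecum over colon and 2.63 (1.48 to 4.89) for colon over ileum. With under 20 counts in both libraries, caecum over ileum was not called, and its fold of 0.724 (0.342 to 1.52) has an interval on both sides of 1. Fgf7 and Fgf10 were thus both highest in the colon library. Fgf7 overlaps the feature 4930525F21Rik, which was also counted, so its few counts may hold reads of that neighbour where strand use is unknown.

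Fgf18 (ENSMUSG00000057967, chromosome 11, 33017430 to 33047400, minus strand), a ligand known from skeletal and lung growth that acts mainly on IIIc receptor forms, had 58, 99 and 52 counts in the caecum, colon and ileum. Its levels were 0.758, 1.64 and 0.866 RPKM. The fold was 0.463 (0.329 to 0.647) for caecum over colon and 1.85 (1.31 to 2.64) for colon over ileum. The colon library was again the highest, and the intervals of the caecum and ileum levels overlapped, with a fold of 0.858 (0.580 to 1.27) for caecum over ileum.

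The promoters of Fgf7, Fgf10 and Fgf18 are shown because these 3 genes were at least 2-fold lower in the caecum than in the colon. Each run holds 250 bases before and 50 after the gene's start, 5' to 3' on the gene's strand, from RefSeq on GRCm38.p6, and lies at chr2:126034408-126034707 (plus), chr13:118714449-118714748 (plus) and chr11:33147351-33147650 (minus). Capitals mark a match to the forkhead motif GTAAACA, found here on the opposite strand.
Fgf7: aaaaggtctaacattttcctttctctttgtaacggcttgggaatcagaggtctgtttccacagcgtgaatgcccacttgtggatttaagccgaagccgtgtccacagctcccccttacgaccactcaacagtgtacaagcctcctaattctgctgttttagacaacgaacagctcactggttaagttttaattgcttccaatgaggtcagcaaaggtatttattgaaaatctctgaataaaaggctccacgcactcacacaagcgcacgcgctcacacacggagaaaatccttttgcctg
Fgf10: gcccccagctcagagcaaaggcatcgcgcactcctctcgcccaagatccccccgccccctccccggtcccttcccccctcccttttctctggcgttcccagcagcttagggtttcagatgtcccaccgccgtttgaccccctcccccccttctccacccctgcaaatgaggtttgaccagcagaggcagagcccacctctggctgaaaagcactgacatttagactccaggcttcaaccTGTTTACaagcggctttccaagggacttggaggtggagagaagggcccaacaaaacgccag
Fgf18: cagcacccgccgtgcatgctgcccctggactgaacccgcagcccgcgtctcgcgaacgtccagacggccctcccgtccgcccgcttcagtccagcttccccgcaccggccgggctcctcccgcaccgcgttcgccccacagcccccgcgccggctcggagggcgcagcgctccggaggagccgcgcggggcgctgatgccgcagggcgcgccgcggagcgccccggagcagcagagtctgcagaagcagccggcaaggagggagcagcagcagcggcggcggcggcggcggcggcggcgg
The windows differ in base composition, with 45.7% G or C for Fgf7, 60.7% for Fgf10 and 78.7% for Fgf18, against a median of 52.7% over 32851 mouse promoters of the same length. Motifs of 5 families were searched on both strands, chosen after the sequences were seen. These were CCGGAA for ETS factors, GTAAACA for forkhead factors, AGATAA for GATA factors, TTTATG for CDX factors and TATAAA for the TATA box, present in 14.9%, 3.65%, 11.2%, 11.9% and 13.6% of promoters. The forkhead match of Fgf10 begins 11 bases before the start, at position -11, and no other match to these motifs was found in the 3 windows. Of the other genes, Fgf9 held a GATA match, Fgfr2 a CDX match and Fgfr4 an ETS match. The table gave promoters for 8 of the 10 genes, and Fgf1 and Fgfr1 had no entry. A match describes the letters of the window only.

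Fgf9 (ENSMUSG00000021974, chromosome 14, 58689384 to 58731174, plus strand), the epithelial ligand, varied less than Fgf10. It had 751, 854 and 468 counts in the caecum, colon and ileum, or 2.73, 3.94 and 2.19 RPKM. The order was colon, then caecum, then ileum, as for Fgf10, and the counting intervals of the 3 levels did not overlap. The fold was 1.23 (1.10 to 1.39) for caecum over ileum, 0.696 (0.630 to 0.768) for caecum over colon and 1.77 (1.58 to 1.99) for colon over ileum. All 3 folds were under 2-fold in size. Epithelial markers summed to 257, 306 and 258 RPKM, also highest in the colon library. Of these 14 markers, 2 were higher for colon over ileum and 1 was lower for caecum over colon. For caecum over ileum 1 was higher (Foxa2) and 1 lower (Elf3). The markers did not share one order by RPKM. Cdh1, Krt19 and Krt8 were highest in the colon library, Epcam, Cldn7 and Elf3 in the ileum library and Cldn6 in the caecum library. Markers of the mesothelium, the outer lining of the gut, summed to 82.9, 103 and 58.4 RPKM, the same order as Fgf9. That order did not hold for each marker. Lrrn4 was highest in the ileum library, Gpm6a was highest in the caecum library and Msln was lowest in the caecum library. Krt19, at 36.0, 48.9 and 22.3 RPKM, is in both marker lists. The part of either in the Fgf9 values was not tested.

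Fgf1 (ENSMUSG00000036585, chromosome 18, 38998327 to 39089058, minus strand), a ligand that binds all the receptors, had 152, 150 and 46 counts in the caecum, colon and ileum. Its levels were 0.509, 0.634 and 0.200 RPKM. The ileum library stood apart as the lowest, whereas the intervals of the caecum and colon levels overlapped. The fold was 2.54 (1.82 to 3.62) for caecum over ileum, 3.17 (2.26 to 4.51) for colon over ileum and 0.802 (0.635 to 1.01) for caecum over colon. Fgf1 overlaps Arhgap26, so reads of these genes may not be told apart where strand use is unknown.

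Fgf2 (ENSMUSG00000037225, chromosome 3, 37211441 to 37304299, plus strand), a ligand without a classical signal peptide, was close to even. It had 109, 124 and 113 counts in the caecum, colon and ileum, or 0.939, 1.35 and 1.25 RPKM. The caecum library was the lowest, with a fold of 0.742 (0.565 to 0.974) over the ileum and 0.695 (0.533 to 0.907) over the colon. Colon and ileum did not differ beyond counting error, at a fold of 1.07 (0.820 to 1.39). The span of the gene overlaps Nudt6, Bbs12 and Cetn4, which were also counted, so these values may hold reads of neighbours.

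**Figure D2:**
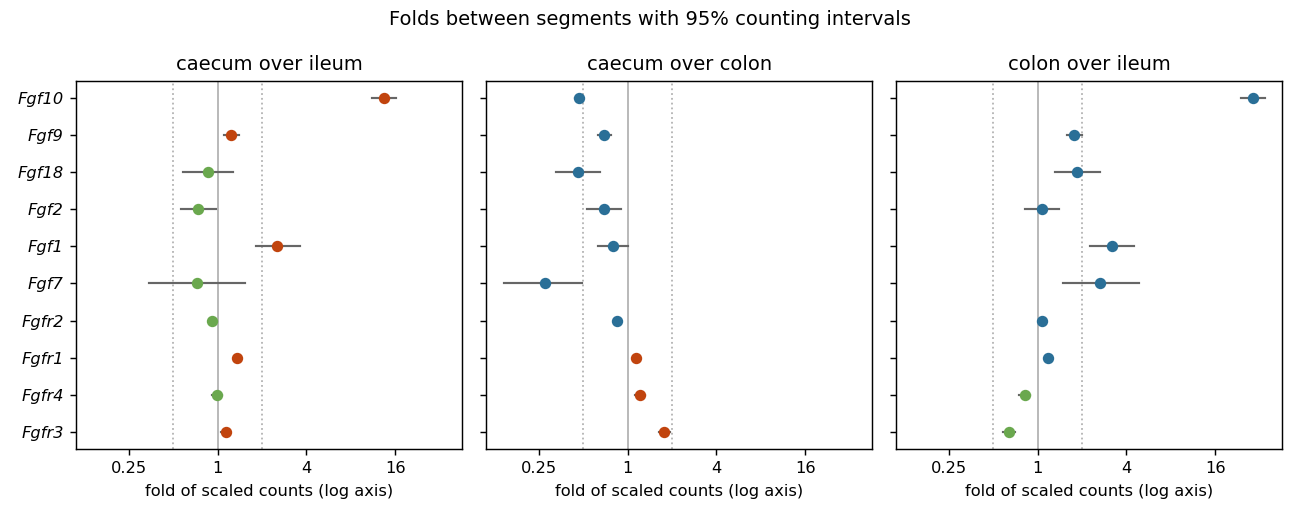
Fold of each FGF ligand and receptor on a log axis, for caecum over ileum, for caecum over colon and for colon over ileum. Points take the colour of the segment with the higher level (orange caecum, blue colon, green ileum), bars are 95% intervals that cover counting error only, and dotted lines mark 2-fold in each direction. Fgf10 reaches 13.4 for caecum over ileum and 28.7 for colon over ileum, and the receptors stay within 2-fold in each comparison.

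The ligand that was most abundant per length differed between segments. The 6 ligands summed to 12.3, 23.5 and 5.15 RPKM in the caecum, colon and ileum. Fgf10 made up 59.2%, 66.6% and 10.4% of the sum, and Fgf9 made up 22.2%, 16.7% and 42.6%. Fgf10 thus ranked above Fgf9 in the caecum and colon libraries, whereas in the ileum library Fgf9 ranked highest and 3 ligands stood above Fgf10. Fgf2 took 7.63%, 5.74% and 24.3% of the sum, and Fgf18 took 6.16%, 6.98% and 16.8%. In the ileum library the order was Fgf9, Fgf2, Fgf18, Fgf10, Fgf1 and Fgf7, and Fgf1 and Fgf7 were the lowest pair in all 3 libraries. Of neighbours in these orders, Fgf2 and Fgf18 had overlapping counting intervals in each library. So did Fgf18 and Fgf1 in the caecum library and Fgf1 and Fgf7 in the ileum library.

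**Figure D3:**
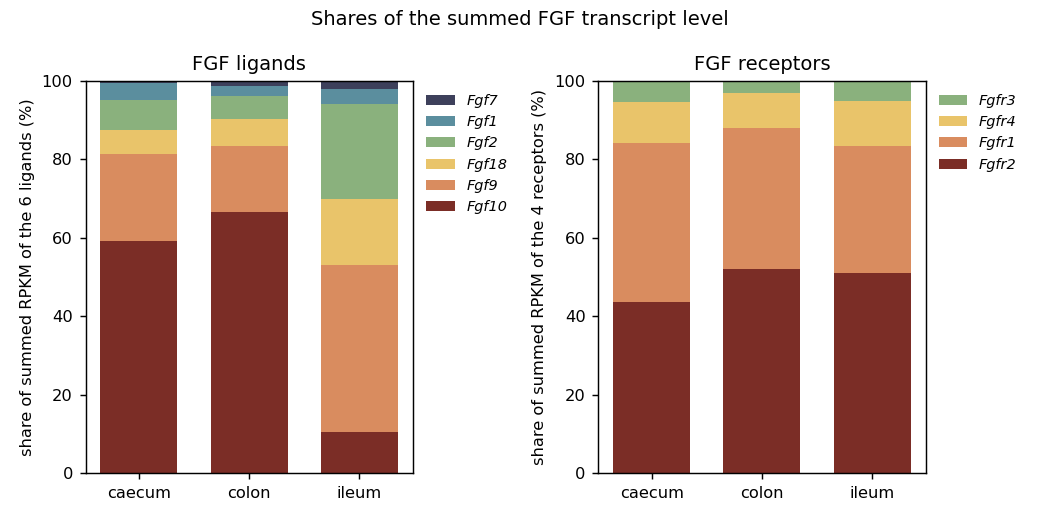
Share of the summed RPKM of the 6 ligands and of the 4 receptors taken by each gene, in percent, for the caecum, colon and ileum libraries. Fgf10 takes 59.2%, 66.6% and 10.4% of the ligand sum, and the order of the receptors is the same in each segment.

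The 4 receptors together summed to 71.4, 70.6 and 65.6 RPKM in the caecum, colon and ileum, above the sum of the ligands in each library. Fgfr2 and Fgfr1 carried most of that sum, and Fgf10 in the colon library stood above Fgfr4 and Fgfr3. Fgfr2 was the most abundant per length, followed by Fgfr1, Fgfr4 and Fgfr3, in each of the 3 libraries, with no overlap of counting intervals between neighbours. Fgfr2 took 43.5%, 52.0% and 51.0% of the receptor sum and Fgfr1 took 40.6%, 36.1% and 32.4%.

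Fgfr2 (ENSMUSG00000030849), the receptor of Fgf10 in its IIIb form, had 15616, 14522 and 13071 counts in the caecum, colon and ileum, or 31.1, 36.7 and 33.5 RPKM. The fold was 0.918 (0.897 to 0.940) for caecum over ileum, 0.851 (0.832 to 0.870) for caecum over colon and 1.08 (1.05 to 1.11) for colon over ileum. The level of this receptor thus differed by under 2-fold where its ligand Fgf10 differed by 13.4-fold and 28.7-fold. Its feature in the table runs from 137305965 to 140315033 on the minus strand of chromosome 7, a span of 3009069 bases that covers 37 other features, 24 of them with at least 20 counts. The exon length implied by the counts and RPKM was 7797 bases. Since strand use is unknown, these counts, the rank of Fgfr2 above Fgfr1 and its share of the receptor sum may hold reads of other genes.

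Fgfr1 (ENSMUSG00000031565, chromosome 8, 26624126 to 26686186, plus strand), a receptor of mesenchymal cells, had 15056, 10435 and 8592 counts in the caecum, colon and ileum, or 29.0, 25.5 and 21.3 RPKM. It was highest in the caecum library, with folds of 1.35 (1.31 to 1.38) over the ileum and 1.14 (1.11 to 1.17) over the colon. The short second feature named Fgfr1 (ENSMUSG00000091895) lies inside it and had 250, 154 and 148 counts. Its folds were 1.30 (1.06 to 1.60) for caecum over ileum and 1.28 (1.05 to 1.58) for caecum over colon, and reads of both features may not be told apart.

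Fgfr3 (ENSMUSG00000054252, chromosome 5, 34064373 to 34079716, plus strand), best known as a brake on bone growth, had the widest spread among the receptors. It had 1704, 760 and 1156 counts in the caecum, colon and ileum, or 3.84, 2.17 and 3.35 RPKM. The colon library was the lowest, the reverse of Fgf9 and Fgf10, and the caecum library the highest. The fold was 1.77 (1.63 to 1.94) for caecum over colon, 0.639 (0.582 to 0.701) for colon over ileum and 1.13 (1.05 to 1.22) for caecum over ileum. Enteric neural crest markers followed the same order as Fgfr3, with sums of 202, 116 and 201 RPKM. Of these 10 markers, 4 were higher for caecum over colon and 6 lower for colon over ileum, Tubb3 and Tlx2 among them, and their part in the Fgfr3 values was not tested. Elavl4, at a fold of 2.004 (1.91 to 2.10) for caecum over colon, lies at the threshold, and 3 of the 10 were apart there under each of the 3 other scalings.

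Fgfr4 (ENSMUSG00000005320, chromosome 13, 55254001 to 55270120, plus strand), known as the liver receptor for the bile acid hormone Fgf15, had 1720, 1121 and 1334 counts in the caecum, colon and ileum, or 7.51, 6.21 and 7.50 RPKM. The caecum and ileum libraries did not differ beyond counting error, at a fold of 0.991 (0.922 to 1.07). The colon library was lower, with a fold of 1.21 (1.13 to 1.31) for caecum over colon and 0.817 (0.754 to 0.885) for colon over ileum.

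Profiles over the 3 libraries were compared for the 4 genes that were apart, by distance in the plane of the log2 folds caecum over ileum and colon over ileum. Candidates were 11312 features with a mean of at least 200 counts. Fgf10 lay in a thin region of this plane, since the nearest feature, Adamts18, was 0.9951 log2 units away, with 796, 1144 and 26 counts in the caecum, colon and ileum. Hoxa9 and Pou3f3 followed at 1.60 and 1.61. Fgf1 had closer neighbours, with Amph at 0.1199, Foxj1 at 0.230 and Cacna1d at 0.246. Fgf7 had S100a6 at 0.137, Lama3 at 0.226 and Gcnt1 at 0.233, and Fgf18 had Fgd6 at 0.0587, Neu3 at 0.119 and Pdzk1ip1 at 0.132. These are likenesses over 3 libraries only, and both axes share the ileum library. The folds of the neighbours named for Fgf1, Fgf7 and Fgf18 lie within the counting intervals of those genes' own folds. Their distances and order are thus within counting error.

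**Figure D4:**
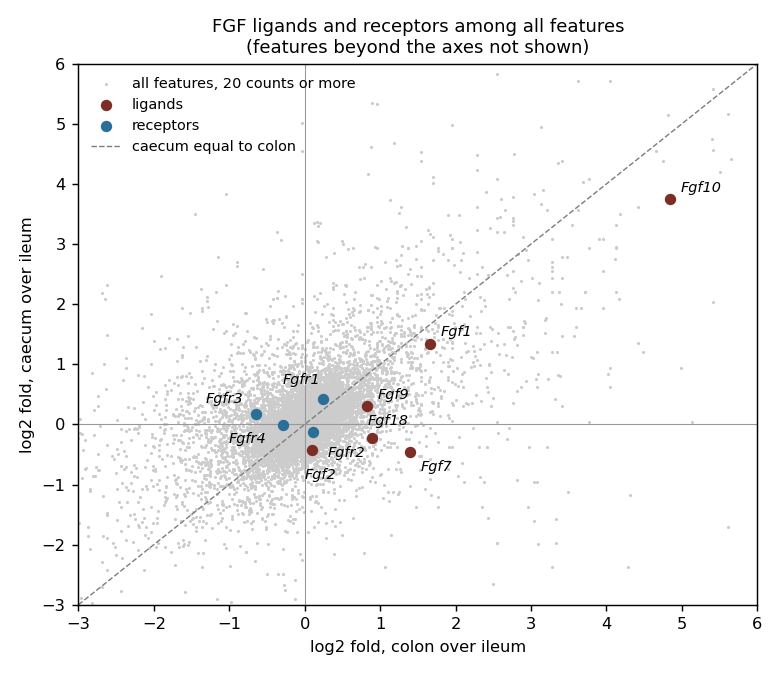
Log2 fold of caecum over ileum (vertical) against log2 fold of colon over ileum (horizontal), for FGF ligands, FGF receptors and all features with at least 20 counts. Both axes share the ileum library. Fgf10 lies far up and right, Fgf1 in the same direction but nearer the origin, and the receptors lie near the origin.

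Other genes of the FGF family, listed as other FGF ligands, were mostly sparse. Of 16, 5 had enough counts in each comparison, and of these only Fgf5 is a secreted ligand. For caecum over ileum 2 were higher in the caecum and 0 lower, for caecum over colon 2 were higher and 0 lower, and for colon over ileum 2 were higher and 2 lower. Fgf13, an intracellular family member that acts on sodium channels, had 1418, 454 and 994 counts in the caecum, colon and ileum, with a fold of 2.47 (2.22 to 2.75) for caecum over colon. Fgf14, of the same intracellular group, had 55, 2 and 40 counts, and the caecum over colon fold was 21.7 (5.74 to 184). Both were lowest in the colon library, where the enteric neural crest markers were also lowest, and the part of those cells was not tested. Fgf5, a secreted ligand known from the hair cycle, had 125, 124 and 40 counts, and Fgf12, another intracellular member, had 114, 114 and 36. The ileum library was lowest for both, as for Fgf1, with caecum over ileum folds of 2.40 (1.67 to 3.52) for Fgf5 and 2.43 (1.66 to 3.65) for Fgf12. Fgf11, the remaining intracellular member, had 469, 299 and 422 counts and was within 2-fold. Fgf15, the bile acid hormone of the later ileum, had 1, 0 and 1 counts. Fgf4, Fgf6 and Fgf23 had 0 in all 3 libraries, which does not exclude a low level. These 4 genes were named after their values were seen.

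Targets and feedback inhibitors of FGF signalling were higher outside the ileum in part of the list. Of 12 measured genes, 2 were higher and 0 lower for caecum over ileum, 0 higher and 1 lower for caecum over colon, and 4 higher and 0 lower for colon over ileum, with median log2 folds of 0.68, -0.09 and 0.55. Etv4, an ETS factor used as a readout of FGF activity, had 1511, 2430 and 278 counts in the caecum, colon and ileum, the same order as Fgf10. Its fold for caecum over colon was 0.492 (0.461 to 0.525). Etv5, its close relative, had 6575, 4020 and 1455 counts and was instead highest in the caecum library, with a fold of 1.29 (1.24 to 1.35) over the colon. Dusp6, an ERK phosphatase, had 4177, 4389 and 1960 counts, with folds of 1.64 (1.55 to 1.73) for caecum over ileum and 2.18 (2.06 to 2.30) for colon over ileum. Spry4, a feedback inhibitor, was also apart for colon over ileum, at 2.04 (1.78 to 2.33), with 777, 692 and 330 counts, and was named after its value was seen. Etv1, Spred1 and Spred2 stayed within 2-fold.

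The proteins that bind FGFs or their receptors and the heparan sulphate machinery were mostly within 2-fold. Of 9 measured co-receptors and binding proteins, 1 was higher and 0 lower for caecum over ileum, 1 higher and 1 lower for caecum over colon, and 1 of 8 was higher and 1 lower for colon over ileum. Flrt3, a membrane protein that binds FGF receptors, had 3636, 4170 and 1452 counts in the caecum, colon and ileum. Its fold was 1.93 (1.81 to 2.05) for caecum over ileum and 2.79 (2.63 to 2.96) for colon over ileum, so the ileum library was the lowest, as for Fgf10 and Dusp6. Fgfrl1, the decoy receptor, had 1667, 1150 and 1198 counts and was within 2-fold, as were Flrt2 and the adhesion molecule Ncam1. The others apart were sparse and are named after their values were seen. Kl, a co-receptor for hormone-like FGFs, had 25, 5 and 6 counts, Klb, its relative, had 50, 24 and 48, and Fgfbp1, a carrier that releases bound FGFs, had 66, 139 and 79. Of the 20 heparan sulphate genes, 0 were higher and 1 was lower for caecum over ileum and for caecum over colon, and none was apart for colon over ileum. The gene called in both was Gpc4, a glypican, with 468, 932 and 768 counts and folds of 0.468 (0.417 to 0.526) for caecum over ileum and 0.397 (0.355 to 0.444) for caecum over colon. Hs6st2, a heparan sulphate sulphotransferase, lay at the threshold for caecum over colon, at 0.5002 (0.455 to 0.549), and made 2 genes lower under each of the 3 other scalings. The glypican Gpc3, the sulphatase Sulf2 and the proteoglycan Hspg2, which had the most counts of the others, were within 2-fold. Of the 17 measured adaptors and Ras-MAPK genes, 0 were apart in any of the 3 comparisons, with median log2 folds of 0.06, 0.07 and -0.03. Ptpn11, a phosphatase that relays receptor signals, had 56.4, 53.9 and 50.1 RPKM in the caecum, colon and ileum, and Plcg1, a phospholipase bound by the receptors, had 40.6, 38.1 and 34.2 RPKM.

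Of 8 further genes of the caecal bud, 5 were higher and 0 lower for caecum over ileum, 4 higher and 0 lower for caecum over colon, and 4 higher and 2 lower for colon over ileum. Hoxd9, Hoxd10 and Hoxd11, members of a homeobox cluster that mice need to form the caecum, had 3422, 4117 and 7937 counts in the caecum, 234, 650 and 2479 in the colon, and 12, 2 and 2 in the ileum. These genes share the low ileum level of Fgf10 but were highest in the caecum library, where Fgf10 was below its colon level. Pitx1, a homeobox gene of the caecal mesenchyme, had 1968, 1001 and 310 counts in the caecum, colon and ileum. Tbx3, a T-box gene, had 5120, 2348 and 5038 counts. Bmp4, a secreted growth factor, had 5835, 3001 and 2407 counts and was within 2-fold, as was Tbx2.

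**Figure D5:**
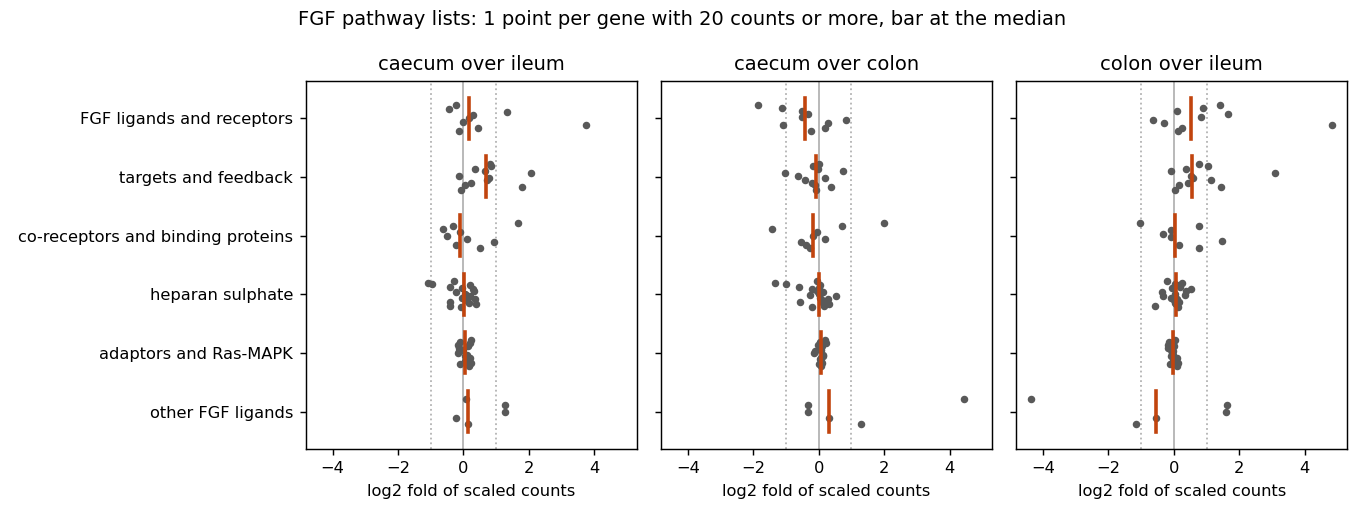
Log2 fold of each measured gene in the lists of FGF ligands and receptors and of the FGF pathway, shown for caecum over ileum, for caecum over colon and for colon over ileum. Each point is 1 gene with 20 counts or more, orange bars mark medians and dotted lines mark 2-fold. The adaptors and Ras-MAPK genes stay within 2-fold, while targets and ligands spread further.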

How the data were processed

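Polyadenylated RNA of 3 gut segments, with 1 sample each, was sequenced as paired 100 bp reads, per the labels. The deposited table holds expected counts, some ending in 0.5, and the authors' RPKM, per the file headers. Bowtie 0.12.7, DESeq and mm9 are listed in the submitters' processing notes. The counting program, the annotation and the use of strand are not given in the sources used here. Both columns of a segment were averaged, and mean counts were rounded. Libraries were scaled by TMM (edgeR 4.0.16, R 4.3.3), with DESeq2 1.42.0 size factors, total counts and the upper quartile as alternatives. Fold intervals are exact (Clopper-Pearson, 95%) from the binomial of both counts, level intervals are exact Poisson intervals, and the procedure was tested on simulated data. Positions are given in mm9 as 1-based starts and ends.

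The 10 genes and the lists were chosen with earlier results of these data known. Of each list, members whose whole interval lay beyond 2-fold were named, with up to 3 others of high count, and some genes that this rule selects are not reported here. Likeness used the 3 nearest features, without predicted genes and without clone or Riken names.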

Additional observations from a re-analysis of the deposited data

How the results depend on the processing

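The number of FGF genes at least 2-fold apart was the same under DESeq2 size factors, total counts, the upper quartile, the ratio of RPKM, no minimum count and either column alone. When the whole interval had to lie beyond 2-fold, 1 gene (Fgf10) remained for caecum over ileum in place of 2, and 2 remained for caecum over colon and for colon over ileum in place of 3. With a minimum of 100 counts, 1 gene remained for caecum over colon and 2 for colon over ileum. Recomputed folds were largely bound to stay near the reported ones, so they are no check between samples. Each scaling shifts all folds of a comparison together, and the 2 columns of a segment differ by less than counting error. Over 33 fold results and 6 settings, all 198 recomputed folds lay within the interval of the reported fold, with a largest shift of 0.42 log2 units. Of these, 3 fell on the other side of 1, all of folds that were not called: Fgfr4 for caecum over ileum (0.991 as reported) was 1.002 under total counts and 1.001 as a ratio of RPKM, and the short Fgfr1 feature for colon over ileum (1.01) was 0.9934 without the column headed replicate 2. Of 126 counts of list genes apart recomputed under other scalings, 8 changed, each by 1. For caecum over colon, heparan sulphate genes apart numbered 2 in place of 1, and enteric neural crest markers 3 in place of 4, under each of the 3 scalings. For colon over ileum, total counts gave 5 enteric neural crest markers in place of 6 and 4 smooth muscle genes in place of 5. Over all features, the numbers higher and lower with no minimum count were 2569 and 1821 for caecum over ileum, 2347 and 2259 for caecum over colon and 2466 and 2232 for colon over ileum. Requiring 100 counts gave 439 and 268, 563 and 241, and 336 and 474 in the same order of comparisons. With the whole interval beyond 2-fold they were 397 and 233, 512 and 229, and 347 and 422. No paired analysis was possible because each segment has 1 sample. Depth limits Fgf7 most, at 16, 46 and 17 counts in the caecum, colon and ileum.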
